A study of Mus musculus with 8 samples.

Results

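The alpha, beta and gamma tubulin genes are the genes of the protein subunits from which microtubules are built and nucleated. Members were the rows of the deposited table whose symbol was Tuba1a, Tuba1b, Tuba1c, Tubb2a, Tubb2b, Tubb3, Tubb4b, Tubb5, Tubb6 or Tubg1, which gave 10 of the 22063 genes. By its own account, the study sequenced RNA of mice fed a high-fat, high-cholesterol (HFHC) diet with or without tranilast, an anti-allergic drug. It asked which transcripts the drug changed. The labels name 4 libraries Control (control) and 4 libraries Control+tranilast (tranilast), all of WT genotype and all from Liver. The diet comes from the series design, since the labels name none, and the methods describe male C57BL/6J mice dosed by mouth with tranilast in a carboxymethylcellulose suspension over the last weeks of the diet. The labels give neither dose nor age of the sequenced mice and do not say that each library came from its own mouse, so that p-values measure the spread between these libraries, which may be technical. The control libraries held from 14585153 to 15618787 counts and the tranilast libraries from 12053036 to 14679386.

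The marker genes went against the labelled tissue. The 10 hepatocyte markers together held at most 0.000438% of the counts of any library, with Ass1 the most abundant at 19 to 41 counts and Cyp3a11, Serpina1a, Hnf4a and Cps1 at 0 counts in every library. The 12 macrophage markers held 0.9999% to 1.06% of the counts of the control libraries and 0.975% to 1.03% of those of the tranilast libraries, and Lyz2, the gene of lysozyme, led them. Clec4f, Vsig4 and Timd4, which mark the resident macrophages of the liver, were at 0 counts in every library. Lists for neurons (at most 0.000476%), stellate cells and fibroblasts (at most 0.000267%), liver endothelium (at most 7.47e-05%), cholangiocytes (at most 6.71e-05%), platelets (at most 6.04e-05%), Kupffer cells (at most 5.89e-05%), ciliated cells (at most 3.80e-05%), lymphocytes (at most 2.73e-05%) and neutrophils (at most 7.55e-06%) were also near 0. The tubulin values below are therefore those of libraries with macrophage transcripts and almost no hepatocyte transcripts. For these libraries, the diet and the dosing by mouth rest on the study's account, since neither the labels nor the counts show them.

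Alpha and beta tubulin fold with the help of chaperones, join as heterodimers and polymerise into microtubules, while gamma tubulin sits in a ring complex that starts new microtubules. Several genes encode each subunit, and their isotypes are used to different extents by dividing cells, neurons, platelets and cilia. Cells also adjust tubulin mRNA to the pool of unpolymerised subunits: the nascent amino terminus of an alpha or beta tubulin chain is recognised by TTC5 at the ribosome, and the mRNA is then degraded through SCAPER and the CCR4-NOT deadenylase.

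The first 30 coding bases of 9 members are shown because those of the alpha and beta genes encode the amino terminus through which tubulin mRNA is regulated. They also differ between the members shown, except that Tuba1b and Tuba1c have the same 30 bases. Tubg1 is shown for comparison. The sequences come from the GENCODE M21 transcripts, 5′ to 3′, with the first 12 bases in capitals.
Tuba1a: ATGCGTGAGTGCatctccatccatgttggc
Tuba1b: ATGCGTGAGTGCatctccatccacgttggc
Tuba1c: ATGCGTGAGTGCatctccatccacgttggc
Tubb2a: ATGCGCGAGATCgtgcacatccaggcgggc
Tubb2b: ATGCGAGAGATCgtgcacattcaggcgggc
Tubb3: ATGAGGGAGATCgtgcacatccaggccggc
Tubb4b: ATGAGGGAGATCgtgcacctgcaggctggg
Tubb5: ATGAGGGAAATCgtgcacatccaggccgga
Tubg1: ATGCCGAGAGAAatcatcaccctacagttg
The first 12 bases were the same in Tuba1a, Tuba1b and Tuba1c, and Gm49450 was the only other of 21596 coding genes to start with them. Among these coding genes, Tubb3 and Tubb4b also shared theirs with each other alone. The start of Tubb2a, Tubb2b, Tubb5 and Tubg1 was found in no other of them. No coding start is given for Tubb6, so the statements on shared starts do not extend to it.

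Of the 10 members, 9 passed the filter on low counts and Tubb3 did not. With tranilast 5 members fell, namely Tuba1b, Tuba1c, Tubb4b, Tubb5 and Tubb6, each to between 1.78-fold and 2.18-fold lower levels, and Tuba1a rose 1.24-fold; these 6 directions held under every scaling tried. Tubb2a, Tubb2b and Tubg1 did not pass the test, although Tubb2b did with upper-quartile, library-size and FPKM scaling. The 5 lower members of 9 tested stand beside a background of 28.8% of the 10770 tested genes called lower, and the 1 higher member beside 28.2% called higher. The groups of libraries did not overlap for 6 of the 9 tested members, against 49.8% of all tested genes. No member passed an absolute log2 fold change of 1.5, the threshold of the methods, which 1.11% of the tested genes passed. The median log2 fold change was -0.83 over the 9 tested members and 0.01 over all tested genes. The calls over all genes split into 3104 lower and 3039 higher with TMM scaling, but into 2321 and 3882 with upper-quartile factors, 1893 and 4613 with library size alone, 1660 and 3958 with FPKM plus 1, and 1663 and 3959 with FPKM plus 0.1. In these bulk libraries, fewer cells of a type and less RNA per cell cannot be told apart.

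**Figure D1:**
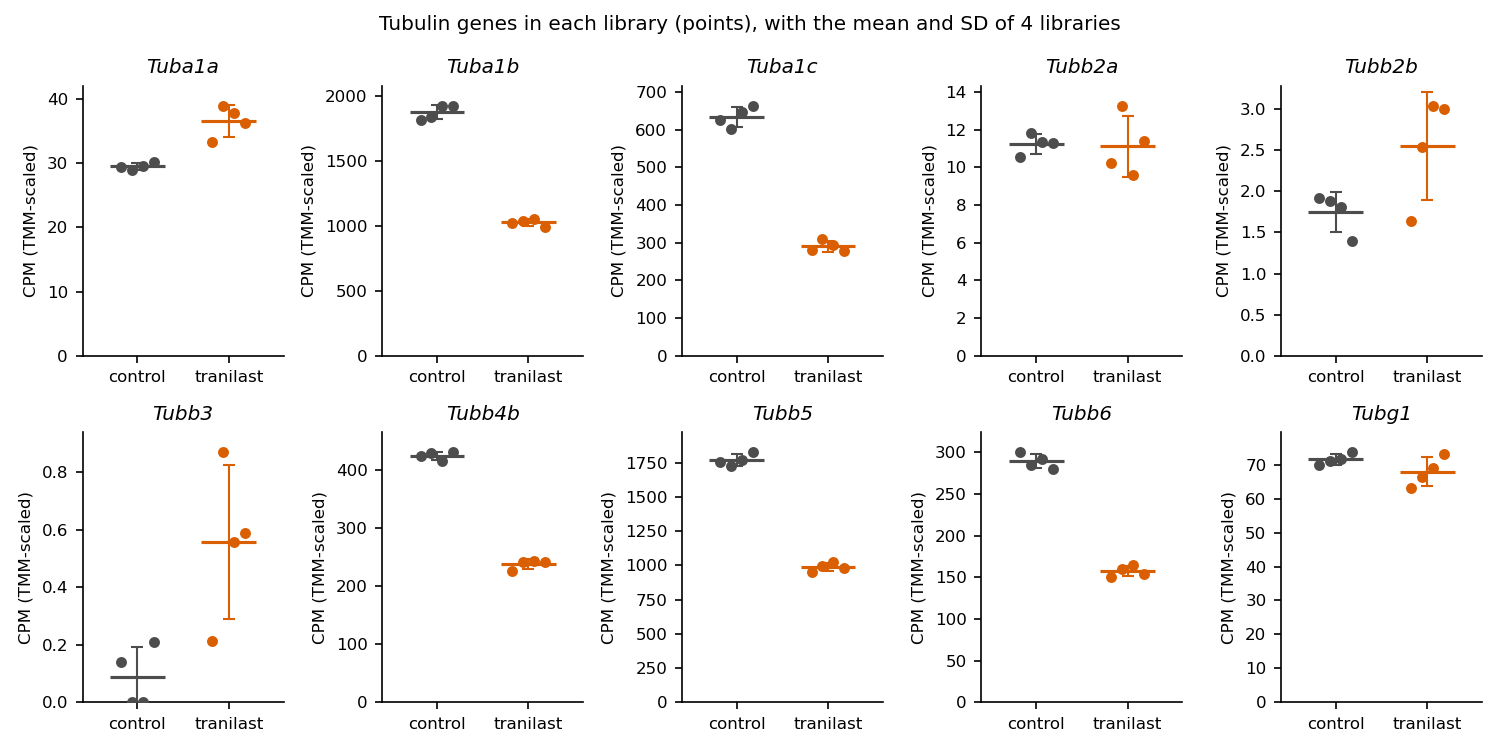
TMM-scaled CPM of the 10 members in each of 4 control and 4 tranilast libraries, 1 panel per gene with an axis from 0; points are libraries, the horizontal line is the mean and the error bar the SD. The control libraries of Tuba1b lie at 1812 or more and its tranilast libraries at 1055 or less, a gap also seen in Tuba1c, Tubb4b, Tubb5 and Tubb6, whereas the groups of Tubb2a, Tubb2b and Tubg1 overlap.

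Among the alpha tubulin genes, Tuba1b (chromosome 15, 98931425 to 98934565, minus strand, GRCm38), a widely expressed isotype, was the most abundant member. Its level was 1812, 1840, 1919 and 1921 CPM in control replicates 1 to 4 and 1023, 1040, 1055 and 993 CPM in tranilast replicates 1 to 4; CPM are counts scaled to a common library size after TMM. All tranilast libraries lay far below all control libraries, with little spread inside either group. The mean was 1873 ± 55.5 CPM (SD, n = 4) in control and 1028 ± 26.7 CPM (SD, n = 4) in tranilast libraries, a log2 fold change of -0.87 (SE 0.025, adjusted p = 4.25e-15). Tuba1c (chromosome 15, 99029891 to 99038110, plus strand), a close paralog, had 626, 601, 647 and 663 CPM in control and 282, 309.6, 295 and 277 CPM in tranilast replicates 1 to 4. Every tranilast library was below 310 CPM and every control library above 601 CPM, so that the groups were well apart. Tuba1c fell the most among the members, from 634 ± 26.8 to 291 ± 14.5 CPM (SD, n = 4 each), with a log2 fold change of -1.12 (SE 0.036, adjusted p = 1.67e-14). Its 95% interval, -1.20 to -1.05, did not meet that of Tuba1b, -0.92 to -0.81, but the difference between these genes was not tested.

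Tuba1a (chromosome 15, 98949837 to 98953703, minus strand), the alpha isotype best known from developing neurons, lies between Tuba1b and Tuba1c. Its level was 29.4, 28.9, 29.6 and 30.2 CPM in control and 33.2, 38.9, 37.8 and 36.3 CPM in tranilast replicates 1 to 4. All tranilast libraries were above all control libraries, the reverse of the neighbouring genes, and tranilast replicate 1 was closest to the control group. The mean went from 29.5 ± 0.516 to 36.5 ± 2.45 CPM (SD, n = 4 each), a log2 fold change of 0.31 (SE 0.062, adjusted p = 0.000358). Tuba1a was therefore the 1 member called higher, at a level far below that of Tuba1b.

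Among the beta tubulin genes, Tubb5 (chromosome 17, 35833921 to 35838306, minus strand), an isotype of most dividing cells, was the most abundant. Its level was 1758, 1725, 1770 and 1824 CPM in control and 953, 998, 1024 and 982 CPM in tranilast replicates 1 to 4. The groups were far apart, and tranilast replicate 1 was the lowest library. The means were 1769 ± 41.4 and 989 ± 29.5 CPM (SD, n = 4 each), a log2 fold change of -0.84 (SE 0.025, adjusted p = 5.14e-15). Tubb4b (chromosome 2, 25222160 to 25224702, minus strand), a broadly expressed isotype also used in cilia, had 424, 429.9, 416 and 431 CPM in control and 227, 243, 245 and 241 CPM in tranilast replicates 1 to 4. Its control libraries were almost level, and none came near a tranilast library. Tubb4b fell from 425 ± 7.04 to 239 ± 8.07 CPM (SD, n = 4 each), a log2 fold change of -0.83 (SE 0.030, adjusted p = 8.79e-14).

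Tubb6 (chromosome 18, 67390717 to 67402749, plus strand) is a broadly expressed beta isotype. It had 299.9, 285, 293 and 280.3 CPM in control and 151, 159.5, 164 and 154 CPM in tranilast replicates 1 to 4. The groups did not overlap, with control replicate 1 the highest library. The means were 289.5 ± 8.58 and 157 ± 5.93 CPM (SD, n = 4 each), a log2 fold change of -0.88 (SE 0.035, adjusted p = 3.01e-13). Tubb4b, Tubb5, Tubb6 and Tuba1b thus had log2 fold changes between -0.88 and -0.83, with overlapping 95% intervals. Of all tested genes, between 2.17% and 2.47% had a lower log2 fold change than each of these 4 genes.

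The remaining beta members, Tubb2a, Tubb2b and Tubb3, are isotypes best known from neurons, and their levels were low. Tubb2a (chromosome 13, 34074274 to 34078007, minus strand) had 10.5, 11.8, 11.4 and 11.3 CPM in control and 10.2, 13.25, 9.58 and 11.4 CPM in tranilast replicates 1 to 4. The groups overlapped fully, with the highest and the lowest library both in the tranilast group. The log2 fold change was -0.02 with a 95% interval from -0.25 to 0.22 (adjusted p = 0.92), and its sign was reversed under 7 of the 19 alternatives that do not set a threshold on the fold change. Tubb2b (chromosome 13, 34126748 to 34130466, minus strand) had 1.92, 1.88, 1.81 and 1.40 CPM in control and 1.63, 2.53, 3.04 and 3.002 CPM in tranilast replicates 1 to 4. Tranilast replicates 2 to 4 were above all control libraries, and tranilast replicate 1 lay among them. The log2 fold change of Tubb2b was 0.54 (95% interval 0.01 to 1.07), which did not pass the test (adjusted p = 0.0748); without tranilast replicate 1 it was 0.71 (adjusted p = 0.0215), within a range of adjusted p from 0.0215 to 0.187 over the alternatives. Tubb3 (chromosome 8, 123411424 to 123422015, plus strand) had 2, 0, 0 and 3 counts in control and 3, 12, 7 and 9 counts in tranilast replicates 1 to 4. These counts were at or under the limit of 3 that a count of 0 allows in all control libraries and in tranilast replicate 1, and above it in the other 3 tranilast libraries. Control replicate 4 and tranilast replicate 1 both had 3 counts, so that the scaling alone orders them: tranilast replicate 1 was the higher in CPM (0.213 against 0.209) and the lower in FPKM (0.121 against 0.134). Tubb3 did not pass the filter on low counts; without that filter edgeR called it higher (adjusted p = 0.00938), and no fold change is given because the fitted value of so few counts depends on the prior count.

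The gamma member Tubg1 (chromosome 11, 101119938 to 101126419, plus strand) encodes the subunit of the ring complex that nucleates microtubules. It had 69.8, 71.1, 71.6 and 73.6 CPM in control and 63.05, 66.5, 68.9 and 73.1 CPM in tranilast replicates 1 to 4. The groups overlapped through tranilast replicate 4, and the other tranilast libraries were below the control group. The log2 fold change was -0.07 (95% interval -0.18 to 0.03, adjusted p = 0.197), an interval that does not reach the size of the fall of the 5 lower members; with library-size or FPKM scaling its sign was reversed.

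**Figure D2:**
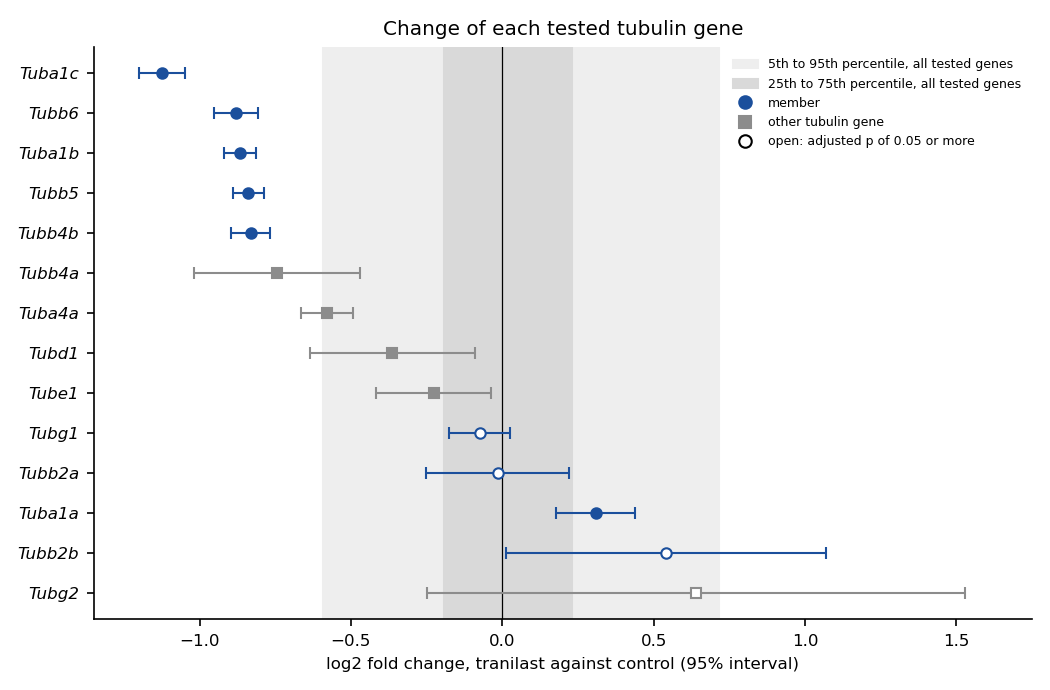
Log2 fold change of the 14 tested tubulin genes, tranilast against control libraries (n = 4 each), with 95% intervals; circles are members, squares are other tubulin genes, filled symbols have an adjusted p under 0.05, and the shaded bands hold the 5th to 95th and 25th to 75th percentiles of all 10770 tested genes. The members Tuba1c, Tubb6, Tuba1b, Tubb5 and Tubb4b lie below the 5th percentile (-0.59), as does Tubb4a outside the members. Tubb2a and Tubg1 change sign under other scalings.

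As an exact two-sided permutation test of single genes, which cannot go below p = 0.0286 with 4 against 4 libraries, the log2 CPM of Tuba1a, Tuba1b, Tuba1c, Tubb4b, Tubb5 and Tubb6 gave that smallest value. Tubb3 reached it too, but only through the order in CPM of the 2 libraries with 3 counts each. Tubb2b (exact p = 0.114), Tubg1 (exact p = 0.171) and Tubb2a (exact p = 0.857) did not pass. The coefficient of variation inside a group was between 1.66% and 4.22% in control and between 2.59% and 4.99% in tranilast libraries for the 5 members that fell, and among the 9 tested members it was highest for Tubb2b, at 13.7% and 25.6%. The members together took 0.490 ± 0.0113% of the counts in control and 0.294 ± 0.00817% in tranilast libraries (SD, n = 4 each).

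Levels can be compared between genes with the deposited FPKM, which are divided by transcript length and library depth. By mean FPKM of the control libraries, Tuba1b ranked 47, Tubb5 99, Tuba1c 203, Tubb4b 241 and Tubb6 409 among all genes, whereas Tubg1 ranked 2245, Tuba1a 4958, Tubb2a 7515 and Tubb2b 10122. In the tranilast libraries the first 5 ranked 98, 154, 394, 387 and 739, so that Tuba1c and Tubb4b changed places, and the last 4 ranked 2188, 4177, 7771 and 9960. The FPKM summed over alpha genes were 1400, 1392, 1466 and 1478 in control and 830, 864, 864 and 818 in tranilast replicates 1 to 4. Those summed over beta genes were 1072, 1048, 1059 and 1087 in control and 620, 660, 668 and 648 in tranilast replicates 1 to 4. Both sums were lower in every tranilast library than in any control library. The ratio of the alpha to the beta sum was 1.35 ± 0.0341 in control and 1.30 ± 0.0325 in tranilast libraries (SD, n = 4 each), and the groups overlapped.

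The 3 most abundant beta isotypes kept nearly the same shares of the beta pool in both groups. Tubb5 gave 60.2 ± 0.674% of the beta FPKM in control and 60.0 ± 0.252% in tranilast libraries, Tubb4b 23.9 ± 0.437% and 24.0 ± 0.267%, and Tubb6 14.8 ± 0.527% and 14.4 ± 0.164% (SD, n = 4 each). Tubb2a and Tubb2b took larger shares of the smaller pool: Tubb2a 0.630 ± 0.0348% in control and 1.11 ± 0.158% in tranilast libraries, and Tubb2b 0.0720 ± 0.0114% and 0.186 ± 0.0428% (SD, n = 4 each), with no overlap of the groups for either. In the alpha pool the share of Tuba1c was 21.4 ± 0.436% in control and 18.1 ± 0.512% in tranilast libraries, and no control library overlapped a tranilast library. The share of Tuba1a was 1.10 ± 0.0214% in control and 2.50 ± 0.136% in tranilast libraries, again with no overlap. Tuba1b held 71.9 ± 0.392% and 72.7 ± 0.502%, and its groups overlapped. Tuba4a, an alpha isotype outside the members, held 5.56 ± 0.113% and 6.70 ± 0.162% of the alpha FPKM. Both pools were smaller with tranilast, with shifts between isotypes of at most a few percentage points.

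**Figure D3:**
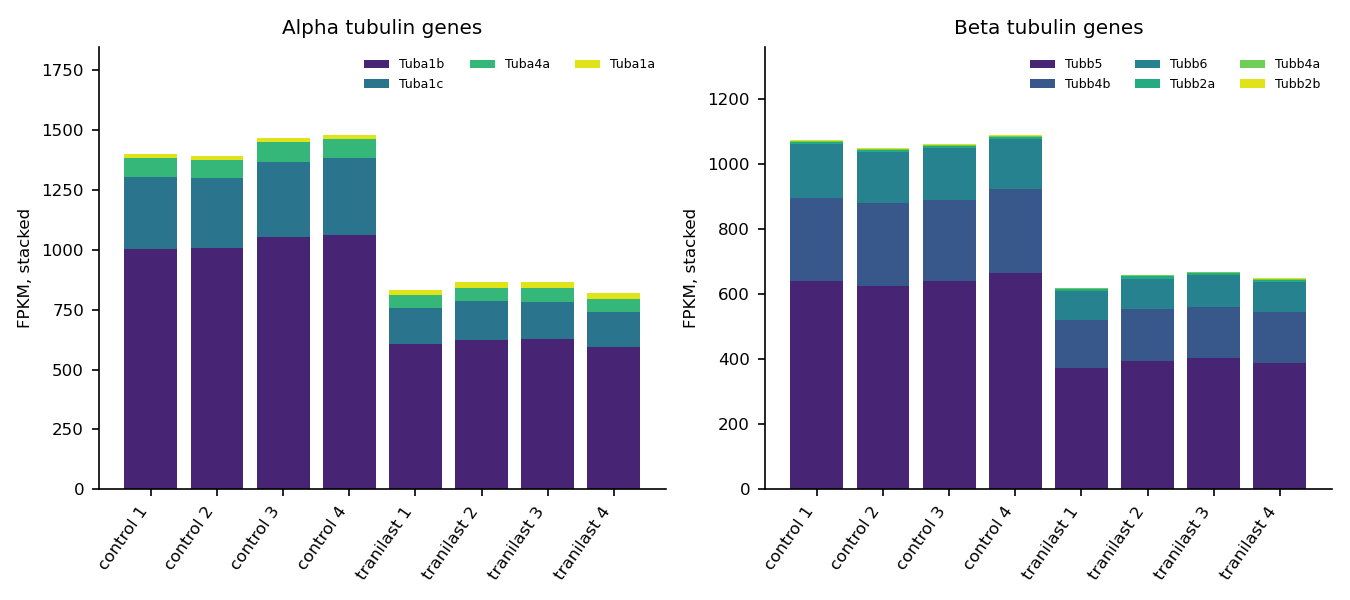
Deposited FPKM of the alpha (left) and beta (right) tubulin genes stacked in each of the 8 libraries, with genes above 1 FPKM in at least 1 library shown and the axes starting at 0. The alpha stacks reach 1392 to 1478 FPKM in control and 818 to 864 FPKM in tranilast libraries, and Tuba1b and Tubb5 make the largest segments in all of them.

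The members that fell were the 5 most abundant of the family. Over the 14 tested tubulin genes, the control level (mean FPKM) and the log2 fold change had a Spearman rho of -0.79 and, with the log10 of the level, a Pearson r of -0.81. This is a description across genes, which share the same 8 libraries and are not independent replicates, and the control libraries enter both measures. The same correlation over all tested genes is not given here, so the trend cannot be called particular to tubulin genes. Tubb4a, a beta isotype known from the nervous system, stood off the trend: it had only 3.72 ± 0.200 FPKM in control libraries and a log2 fold change of -0.75.

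**Figure D4:**
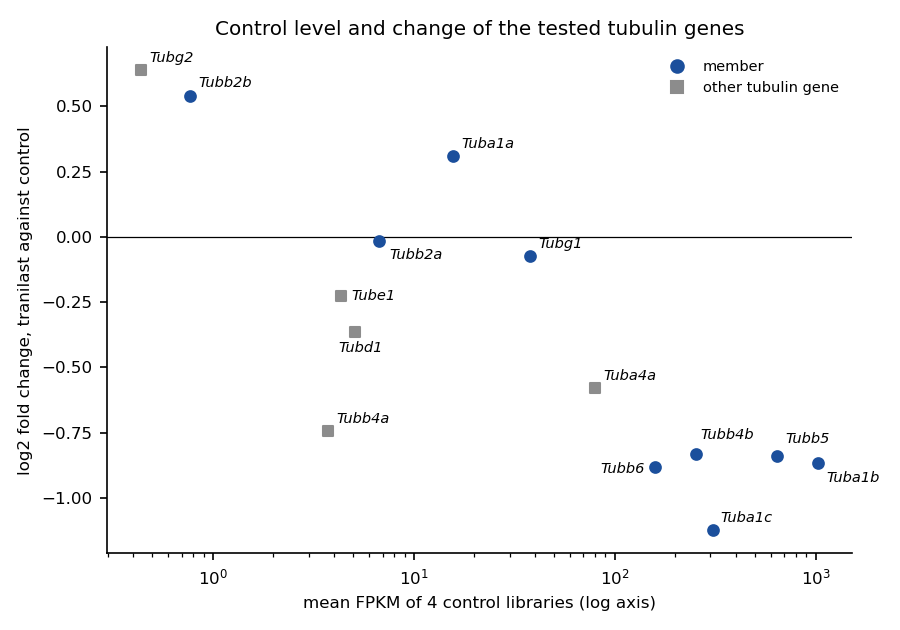
Mean FPKM of 4 control libraries (log axis) against the log2 fold change of the 14 tested tubulin genes, tranilast against control; circles are members and squares other tubulin genes. Tuba1b, Tubb5, Tuba1c, Tubb4b and Tubb6 lie at the lower right, at 158 FPKM or more, and Tubb4a lies low on the left; Tubb2a and Tubg1, near 0, change sign under other scalings.

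Of the 10 other tubulin genes, Tuba3a, Tuba3b, Tubal3 and Tubb1, which belong to testis, gut or platelets, had 0 counts in every library, and Tuba8 had at most 5. The other 5 were tested, of which 4 were lower and none was higher by edgeR. Over all tested genes 28.8% were called lower and 28.2% higher. None of the 5 was higher at an unadjusted p under 0.05, by DESeq2 or by limma-voom. Tuba4a, whose product lacks the carboxy-terminal tyrosine of other alpha isotypes, fell from 158 ± 5.93 to 106 ± 4.78 CPM (SD, n = 4 each; log2 fold change -0.58, SE 0.041, adjusted p = 1.08e-09). Tubb4a fell from 8.65 ± 0.472 to 5.16 ± 0.593 CPM (SD, n = 4 each; log2 fold change -0.75, SE 0.13, adjusted p = 9.26e-05). Both kept their direction and call under the 19 alternatives that do not set a threshold on the fold change; neither passed an absolute log2 fold change of 1.5. The delta tubulin gene Tubd1 (log2 fold change -0.36, SE 0.13, adjusted p = 0.0233) and the epsilon tubulin gene Tube1 (log2 fold change -0.23, SE 0.090, adjusted p = 0.0392), both of which serve centrioles, passed less firmly. Tubd1 lost its call with upper-quartile, library-size and FPKM scaling and without control replicate 2 (adjusted p = 0.0782) or tranilast replicate 1, 2 or 3 (adjusted p = 0.0637, 0.0574 and 0.0635), in a range of 0.00533 to 0.11 over the alternatives. Tube1 lost its call under 14 of the 19, among them DESeq2 (adjusted p = 0.0773) and the fits without control replicate 2 or 3 (adjusted p = 0.0641 and 0.0878) or without tranilast replicate 1, 2, 3 or 4 (adjusted p = 0.0757, 0.0562, 0.0666 and 0.0818), in a range of 0.0378 to 0.307. The gamma paralog Tubg2 had 6 to 28 counts and a log2 fold change of 0.64 with a 95% interval from -0.25 to 1.53 (adjusted p = 0.208); it was 0.25 without tranilast replicate 3 and 1.002 without control replicate 1, and it passed under no alternative (adjusted p 0.0771 to 0.657).

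Near-identical copies limit how reads can be assigned to single members. Of all 100-base windows of the longest annotated coding transcript, 69.5% in Tuba1b, 65.1% in Tuba1a, 53.4% in Tuba1c, 36.9% in Tubb2a and 27.7% in Tubb2b were also present in another gene. Tuba1b shared 48.6% of its windows with Tuba1c, and Tubb2a shared 35.9% with Tubb2b. For Tubb4b the 29.2% shared were with pseudogenes, for Tubg1 4.11% were shared with Tubg2, and Tubb3, Tubb5 and Tubb6 shared none. In the deposited counts, Tuba1a, Tuba1b, Tuba1c, Tubb2a and Tubb2b were fractional in all 8 libraries, while Tubb3, Tubb4b, Tubb5 and Tubb6 were whole in all 8. Tubg1 was fractional in 2 libraries, and Tuba4a, outside the members, in all 8. The values of the 5 members fractional in all libraries, and of Tuba4a, are uncertain one by one. How many reads of Tuba1b or Tuba1c were counted for Tuba1a was not tested. Summed over Tuba1a, Tuba1b and Tuba1c, an alternative chosen after seeing the data, the level fell from 2537 ± 79.1 to 1355 ± 40.1 CPM (SD, n = 4 each; log2 fold change -0.90, SE 0.025, adjusted p = 3.04e-15). Summed over Tubb2a and Tubb2b it was 13.0 ± 0.546 and 13.7 ± 1.77 CPM (SD, n = 4 each; log2 fold change 0.07, SE 0.10, adjusted p = 0.561). Tubb5 and Tubb6, which share no such window, had log2 fold changes of -0.84 and -0.88.

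Promoters of 7 of the 10 members were found in the RefSeq table (GRCm38.p6), the 3 others being Tubb2b, Tubb6 and Tubg1. The 250 bases upstream of the RefSeq start are shown for Tuba1c and Tubb4b, both of which fell, and for Tubb2a, which did not pass the test, each 5′ to 3′ on the strand of the gene. Capitals mark matches to a box reading CCAAT, a box rich in guanine reading GGGCGG (the GC box), a box with the letters TATAAA (the TATA box) and the cell cycle homology region, searched as TTTGAA, on either strand; no matches overlapped.
Tuba1c: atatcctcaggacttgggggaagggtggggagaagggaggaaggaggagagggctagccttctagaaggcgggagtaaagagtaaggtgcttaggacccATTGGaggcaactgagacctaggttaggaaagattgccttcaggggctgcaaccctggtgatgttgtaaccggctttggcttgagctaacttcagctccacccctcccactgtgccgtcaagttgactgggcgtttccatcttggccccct
Tubb4b: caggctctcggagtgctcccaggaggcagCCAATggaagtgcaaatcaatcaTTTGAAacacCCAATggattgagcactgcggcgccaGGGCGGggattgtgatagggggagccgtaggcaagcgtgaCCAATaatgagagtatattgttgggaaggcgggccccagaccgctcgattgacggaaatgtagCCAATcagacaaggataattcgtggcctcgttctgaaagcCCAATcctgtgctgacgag
Tubb2a: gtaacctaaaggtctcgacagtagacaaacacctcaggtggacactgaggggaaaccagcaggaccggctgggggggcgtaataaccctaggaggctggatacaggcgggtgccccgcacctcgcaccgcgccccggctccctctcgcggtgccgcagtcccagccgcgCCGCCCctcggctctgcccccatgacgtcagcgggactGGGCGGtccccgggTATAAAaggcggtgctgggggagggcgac
These stretches are chr15:99029641-99029890 on the plus strand, chr2:25224703-25224952 on the minus strand and chr13:34078009-34078258 on the minus strand. Tubb4b held 5 matches to CCAAT, 1 GC box and 1 match to TTTGAA, Tuba1c held 1 match to CCAAT, and Tubb2a held 2 GC boxes and 1 TATA box. Over the 7 member promoters, CCAAT was present in 5, against 33.8% of 32851 promoters of the same length, and the GC box in 5, against 32.7%. CCAAT was absent from Tuba1b, which fell, and from Tubb2a. It was present in Tuba1c, Tubb4b and Tubb5, which fell, in Tuba1a, which rose, and in Tubb3, which did not pass the count filter. The TATA box was present in 1 of the 7 (12.4% of all promoters) and TTTGAA in 1 (5252 of the 32851 promoters). The 3 windows shown lie outside the genes as GENCODE places them, whereas the windows of Tuba1a, Tuba1b, Tubb3 and Tubb5 lie inside by 202, 175, 129 and 5 bases, so that these 4 hold transcribed sequence of the GENCODE gene besides upstream sequence.

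Among the genes that fold, nucleate, modify and bind tubulin, some were lower and some higher. Over all tested genes 28.8% were called lower and 28.2% higher. The counts of every list below stand beside these shares, including the spindle, cell cycle, actin and macrophage lists. All 8 tested subunits of the CCT chaperonin, which folds tubulin and actin, were lower (median log2 fold change -0.34; none higher by edgeR, at an unadjusted p under 0.05, or by DESeq2 or limma-voom; 7 were lower with upper-quartile factors and 6 with library size alone or either FPKM scale). Cct6a (log2 fold change -0.53, SE 0.027, adjusted p = 1.59e-11) and Tcp1 (-0.46, SE 0.026, adjusted p = 4.71e-11) had the lowest values and Cct4 (-0.19, SE 0.032, adjusted p = 6.28e-05) and Cct2 (-0.12, SE 0.029, adjusted p = 0.00136) the highest. Prefoldin, which hands nascent tubulin to CCT, had 3 of 6 subunits lower and none higher by any of these tests, namely Pfdn2 (log2 fold change -0.37, adjusted p = 0.0016), Pfdn1 (-0.35, adjusted p = 0.00108) and Pfdn6 (-0.21, adjusted p = 0.0219). Only 2 subunits were lower with upper-quartile factors, library size alone or either FPKM scale, at an adjusted p under 0.01, and without control replicate 2 or tranilast replicate 1, 2 or 3. Of the 7 genes listed as tubulin folding cofactors, 3 were higher and none was lower by any of these tests. At an adjusted p under 0.01, or without control replicate 1, control replicate 3 or tranilast replicate 2, only 2 were higher. The 3 were Tbcel (log2 fold change 0.37, adjusted p = 6.19e-05), Tbce (0.22, adjusted p = 0.0408) and Tbcd (0.18, adjusted p = 0.00912).

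The partners of gamma tubulin moved in both directions by small amounts. In the ring complex and its anchors 2 of 12 genes were lower and 4 higher, against 28.8% and 28.2% of all tested genes, with a median log2 fold change of 0.04; most alternatives gave 2 lower and 3 higher, library size alone gave 1 lower and 8 higher, upper-quartile factors 2 and 6, and either FPKM scale 1 and 4. Cdk5rap2, a centrosomal activator of the complex, was lowest (log2 fold change -0.39, SE 0.046, adjusted p = 1.22e-06), followed by the small subunit gene Mzt1 (-0.23, SE 0.051, adjusted p = 0.000829), and Nme7 (0.36, SE 0.088, adjusted p = 0.00218) and Tubgcp2 (0.23, SE 0.042, adjusted p = 0.000156) were highest. None of the 8 genes of augmin, which recruits the ring complex to existing spindle microtubules, passed the test with TMM scaling in edgeR, in DESeq2 or limma-voom, or at an unadjusted p under 0.05, and their log2 fold changes lay between -0.11 and 0.10. With library size alone 3 of them were called higher, and with FPKM plus 1 or plus 0.1 it was 1.

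Of 7 genes of the tubulin mRNA autoregulation pathway, Cnot7 (log2 fold change -0.35, SE 0.044, adjusted p = 2.44e-06) and Cnot1 (-0.29, SE 0.029, adjusted p = 1.03e-07), subunits of the CCR4-NOT complex, were lower. Scaper, the adaptor that recruits it, was higher (log2 fold change 0.29, SE 0.080, adjusted p = 0.00543), and the other 4 did not pass with TMM scaling, although 3 genes of the list were called higher with upper-quartile factors, library size alone or either FPKM scale. The list had 2 genes lower and 1 higher, against 28.8% and 28.2% of all tested genes, and a median log2 fold change of -0.01. Of 22 tubulin modifying enzymes, 14 were tested, with 2 lower, 6 higher (28.8% and 28.2% over all tested genes) and a median log2 fold change of 0.11. With upper-quartile factors or library size alone 9 were higher, with FPKM plus 1 it was 7 and with FPKM plus 0.1 it was 8, while 4 were higher without control replicate 2 or tranilast replicate 1 and 3 at an adjusted p under 0.01; Ttll6 and Agbl1 had 0 counts in every library. The glycylase gene Ttll3 (log2 fold change -0.71, SE 0.21, adjusted p = 0.00658) and Svbp, the partner of the vasohibin detyrosinases (-0.48, SE 0.13, adjusted p = 0.00394), were lowest. The vasohibin gene Vash2 (0.97, SE 0.37, adjusted p = 0.0328) and the deglutamylase gene Agbl3 (0.73, SE 0.20, adjusted p = 0.00522) were highest, at mean levels of 0.555 and 3.14 CPM in control libraries.

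Of 30 microtubule-associated and severing proteins, 22 were tested, with 6 lower, 8 higher (28.8% and 28.2% over all tested genes) and a median log2 fold change of 0.07. Only 2 were called lower with library size alone or either FPKM scale, and 5 were called higher without control replicate 4 or at an adjusted p under 0.01. The polymerase gene Ckap5 fell from 246 ± 7.21 to 141 ± 6.22 CPM (SD, n = 4 each; log2 fold change -0.80, SE 0.037, adjusted p = 2.93e-12), close to the values of the members that fell, and the plus-end gene Clasp1 was next lowest (-0.29, SE 0.046, adjusted p = 3.87e-05). Mapre3, a plus-end gene, had 0.523 ± 0.174 CPM in control and 1.67 ± 0.340 CPM in tranilast libraries (SD, n = 4 each). It was highest of the called genes (log2 fold change 1.68, SE 0.35, adjusted p = 0.000488), followed by Map1a (0.70, SE 0.14, adjusted p = 0.000349).

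Of the genes of the mitotic spindle, through which dividing cells use tubulin, 14 were listed apart from augmin. All 14 were lower (13 with upper-quartile, library-size or FPKM scaling), with a median log2 fold change of -1.23, and none was higher by edgeR, at an unadjusted p under 0.05, or by DESeq2 or limma-voom. The kinesin gene Kif20a fell from 202 ± 6.66 to 57.5 ± 2.99 CPM (SD, n = 4 each; log2 fold change -1.82, SE 0.042, adjusted p = 3.83e-16) and Hmmr from 141 ± 4.39 to 41.2 ± 2.28 CPM (SD, n = 4 each; log2 fold change -1.78, SE 0.046, adjusted p = 1.47e-15). The smallest changes were those of Ckap2 (log2 fold change -0.62, SE 0.064, adjusted p = 1.99e-07) and Numa1 (-0.12, SE 0.029, adjusted p = 0.00198). Of 25 cell cycle genes, 19 were lower and 3 higher, with a median log2 fold change of -0.93; the 3 higher genes, named after their values were seen, were Ccne2, Ccne1 and Rrm2. With upper-quartile factors 16 were lower and 5 higher, and with library size alone or either FPKM scale 16 were lower and 6 higher. The list held 0.691% to 0.723% of the counts of the control libraries and 0.485% to 0.497% of those of the tranilast libraries, with Mki67 the most abundant and no gene at 0. Its log2 fold changes ran from -2.58 for Plk1 to 0.43 for Ccne2. Pcna, Mcm3 and Mcm6, also named after their values were seen, did not pass (0.02, 0.01 and -0.01). Mcm2 and Mcm5 were lower by little (-0.08 and -0.07). The part of the spindle and cell cycle lists, as markers of dividing cells, in the fall of 5 members was not tested.

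Of 13 actin and intermediate filament genes, 12 were lower and none was higher (also none at an unadjusted p under 0.05 or by DESeq2 or limma-voom), with a median log2 fold change of -0.40; 11 were lower with upper-quartile factors and 9 with library size alone or either FPKM scale. Lmnb2, named after its value was seen, did not pass (-0.09, adjusted p = 0.0712), although without control replicate 2 all 13 were lower. The lamin gene Lmnb1 (log2 fold change -0.79, SE 0.037, adjusted p = 3.45e-12) and the actin gene Actb (-0.68, SE 0.023, adjusted p = 3.48e-14) were lowest of the called genes, and Arpc3 (-0.18, SE 0.043, adjusted p = 0.00172) and Capzb (-0.18, SE 0.036, adjusted p = 0.000269) highest. Of the 11 tested macrophage markers, 7 were lower and 2 higher (28.8% and 28.2% over all tested genes), with a median log2 fold change of -0.13. Their log2 fold changes ran from -1.42 for Fcgr1 to 0.21 for Adgre1. Calls of this list were not counted under the other scalings. Mertk had at most 1 count, and the part of these markers in the tubulin values was not tested.

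**Figure D5:**
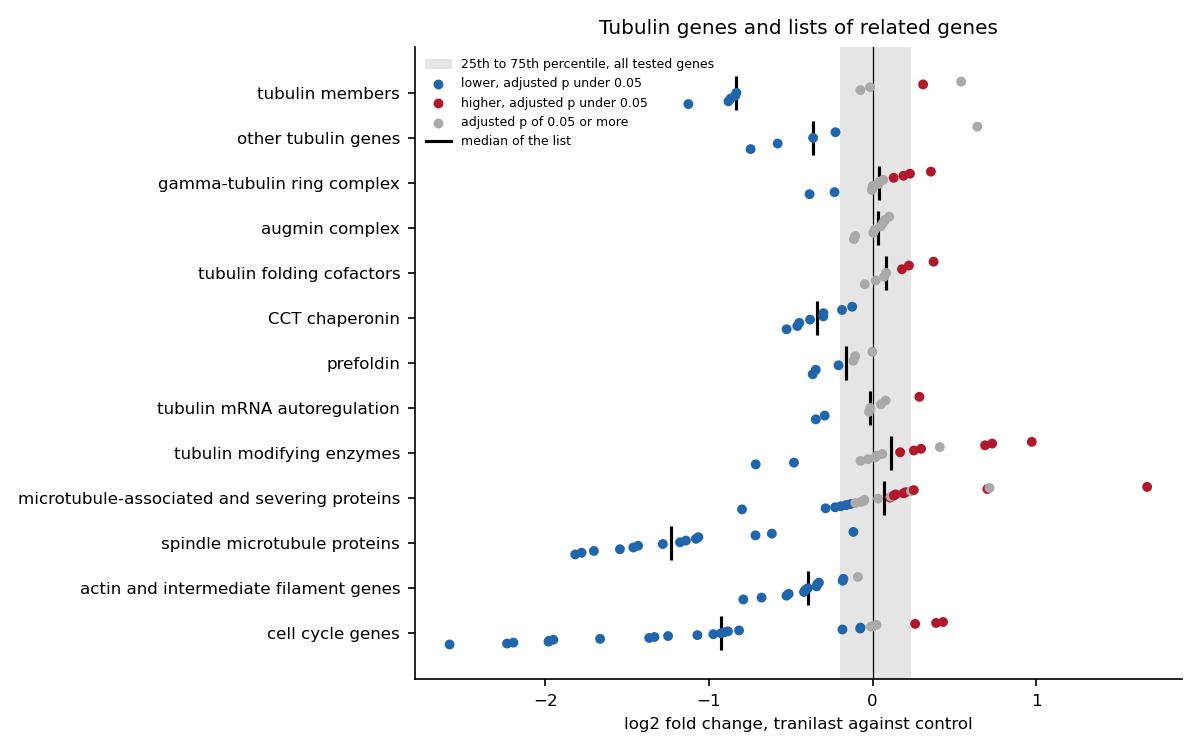
Log2 fold change of each tested gene, tranilast against control (n = 4 libraries each), in the tubulin members and 12 other lists; points are genes coloured by call, black lines are list medians, and the grey band holds the 25th to 75th percentile of all 10770 tested genes. The medians of the members (-0.83), the spindle list (-1.23) and the cell cycle list (-0.93) lie left of the band. So do those of the actin and intermediate filament genes (-0.40), the other tubulin genes (-0.36) and CCT (-0.34). The medians of the ring complex (0.04) and augmin (0.03) lie inside it. Members near 0 change sign under other scalings.

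The genes most like Tuba1b over the 8 libraries, among 9754 genes with a mean count of at least 50, were Arhgdia (Pearson r = 0.9996), Gnai2 (r = 0.9994), Ldha (r = 0.9986), Hmmr (r = 0.9986) and Eno1b (r = 0.9986) on log2 CPM. These libraries fall into 2 groups, so that r follows the group difference and any gene with small spread inside the groups scores high, whatever the size of its change. The log2 fold changes of the 5 genes ranged accordingly, from -0.24 for Gnai2 and -0.44 for Arhgdia to -0.60 for Eno1b, -0.76 for Ldha and -1.78 for Hmmr.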

How the data were processed

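RNA-seq of 8 libraries was analysed. The authors deposited 1 table with, per gene and library, an estimated count of reads, not always whole, and an FPKM value; the counting tool and genome build are not given in the sources used here. The methods name poly-A selection and a HiSeq X-ten, and the labels another Illumina instrument. Groups came from the labels. Counts were rounded to whole numbers, filtered with filterByExpr by group and scaled by TMM. They were tested by the quasi-likelihood method of edgeR 4.0.16 (R 4.3.3). The p-values were adjusted after Benjamini and Hochberg across 10770 genes. Every adjusted p in the text is from this fit unless its sentence names another tool, an alternative setting, a left-out library or a sum of genes. A call is an adjusted p under 0.05. The test was checked on simulated data with 200 of 10770 genes changed by a log2 fold change of 1 in either direction. It recovered 95.5% of them, with 6 false calls. So few and balanced changes cannot check the choice of scaling. Single genes were also compared by an exact permutation test of log2(CPM + 0.1). No pair of libraries of a group agreed within sampling noise (chi-square per degree of freedom 2.54 to 5.47). Alternatives used other scalings, filters and thresholds, DESeq2 1.42.0, limma 3.58.1 on voom values or on log2(FPKM + 1) and log2(FPKM + 0.1), a block on replicate number and each library left out. A count of 0 allows up to 3 counts, 0.196 to 0.240 CPM on the TMM scale; limits of this kind cover counting error only. Positions and transcripts came from GENCODE M21 (GRCm38) by gene identifier. Named genes were all tubulin genes, the 2 highest and 2 lowest log2 fold changes among the called genes of each related list, genes at or near 0, and the 5 genes most like the most abundant member. The members and lists were chosen with earlier results of these data known.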

Additional observations from a re-analysis of the deposited data

Results flagged for a closer look

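Of 32 groups of 4 libraries (each tubulin gene with any count, in control and in tranilast), 2 had a library far from the other 3 by Dixon's test, where chance flags about 1 in 20 groups. Tuba4a had 149.1 CPM in control replicate 2, below the 160.1 to 161.8 CPM of the other control libraries and above every tranilast library. Tubd1 had 9.527 CPM in tranilast replicate 4, against 7.03 to 7.31 CPM in the other tranilast libraries, inside the range of the control libraries.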

How the results depend on the processing

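Tuba1a, Tuba1b, Tuba1c, Tubb4b, Tubb5, Tubb6, Tuba4a and Tubb4a kept their direction and call under the 19 alternatives other than the threshold on the absolute log2 fold change of 1.5, which leaves the values as they are and ends each of these calls; log2 fold changes ran from -0.88 to -0.75 for Tuba1b, from -1.15 to -1.003 for Tuba1c and from 0.28 to 0.42 for Tuba1a. Tubb2a was reversed with upper-quartile factors (0.0529), library size alone (0.102), FPKM plus 1 (0.0792) and FPKM plus 0.1 (0.0882), and it ran from -0.106 to 0.0486 with a library left out. Tubg1 was reversed with library size alone (0.0420), FPKM plus 1 (0.0383) and FPKM plus 0.1 (0.0391). Library size alone moved the median log2 fold change of all genes by 0.12 and FPKM plus 0.1 by 0.11; relative to the median, with library size alone, Tubb2a was at -0.02, Tubg1 at -0.08, Tubb2b at 0.53, Tuba1a at 0.30 and Tuba1b at -0.87. Genes called lower numbered 1893 with library size alone, 1660 with FPKM plus 1, 1663 with FPKM plus 0.1 and 52 past an absolute log2 fold change of 1.5, and genes called higher 4613 with library size alone and 68 past 1.5. Members called lower numbered 0 past 1.5, and members called higher 2 with upper-quartile factors, library size alone or either FPKM scale (Tuba1a and Tubb2b), 2 with no filter (Tuba1a and Tubb3), 0 past 1.5, and 1 to 2 with a library left out (2, Tuba1a and Tubb2b, without tranilast replicate 1). No pairing of the libraries by replicate number was evident. Correlations of deviations were 0.09, 0.09, 0.01 and 0.24 for replicates 1 to 4, and 1 of 4 tranilast libraries matched its own number best. So few libraries cannot exclude a weak pairing. With the replicate block 3052 genes were lower and 2957 higher, 5 members lower and 1 higher. The causes were not tested beyond what each setting changes by construction. Low counts limit Tubb3, Tubb2b and Tubg2.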

Other observations

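The libraries of a group differed little: the common biological coefficient of variation over all tested genes was 5.09%, and the median absolute log2 fold change of the called genes was 0.32, which is smaller than that of each of the 5 tubulin members that fell.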
